A study of Capra hircus with 6 samples.

Results

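The insulin-like growth factor (IGF) and growth hormone receptor genes of the goat hypothalamus were described here. They comprised 10 genes taken by their NCBI goat symbols: the ligands IGF1 and IGF2, the receptors IGF1R, IGF2R and GHR, and the binding proteins IGFBP2, IGFBP3, IGFBP4, IGFBP5 and IGFBP7. These 10 genes had 25 of the 30679 transcripts, and were 10 of the 20225 genes, in the mRNA table. Their NCBI Gene identifiers were 100860838 (IGF1), 100861277 (IGF2), 100861165 (IGF1R), 100860744 (IGF2R), 100860790 (GHR), 102175172 (IGFBP2), 102174541 (IGFBP3), 100860812 (IGFBP4), 100860950 (IGFBP5) and 102184134 (IGFBP7). The hypothalamus was taken from 6 female Anhuai goats kept on a single farm, and each goat gave 1 library. The 3 pubertal goats were 4.5 to 5.0 months old and were sampled in the late follicular phase, with puberty judged from oestrus detection by males and from the vulva. The 3 prepubertal goats were 2.5 to 3.0 months old and weighed less on average, with lighter ovaries. The stages thus also differ in age, body weight and cycle phase, which cannot be told apart from puberty in this design. No allele or drug separated the groups. The question was whether the IGF system differs between these stages in the tissue that drives puberty.

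IGF1 and IGF2 are small secreted hormones related to insulin. Both signal mainly through IGF1R, a receptor tyrosine kinase, while IGF2R binds IGF2 and carries it to lysosomes without that kinase signal. GHR is the receptor for growth hormone, which stimulates IGF1 synthesis in liver and other tissues. The IGF binding proteins hold the ligands in the extracellular fluid and limit or prolong their access to the receptor, and IGFBP7 binds IGFs more weakly than the others do. In the brain IGF1 is made by neurons and glia and reaches the hypothalamus from blood too, where it is known to act on neurons that release gonadotropin-releasing hormone. IGF2 and IGFBP2 are known as products of the meninges and the choroid plexus in the adult brain.

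Expression was given in FPKM, fragment numbers divided by transcript length and by the total of the library, and the transcripts of a gene were added. Values are listed in the order of replicates 1, 2 and 3 of a stage. In genes with a single transcript the low values were whole multiples of the value of 1 fragment. Between 99.9% and 100% of those worth up to 10 fragments lay within 0.1 of a whole number. A fragment was worth between 0.0424 and 0.0577 FPKM at an effective length of 1000 nt and was worth most in pubertal replicate 3, which therefore had the smallest total behind its FPKM scale. That total is the divisor of the FPKM and is not the sequencing depth. Fragment numbers below are estimates from this step, and they are less certain for genes with several transcripts. In pubertal replicate 3 the summed choroid plexus markers were 329 FPKM, against 6.58 and 11.8 FPKM in the other pubertal and 7.67 to 58.6 FPKM in the prepubertal libraries, and all 6 of them were highest there. The 7 leptomeningeal fibroblast markers were also highest there, with a sum of 344 FPKM against 54.6 to 152 FPKM. The gene sums of the members are therefore given with and without pubertal replicate 3. Of the 8 genes listed as markers of hypothalamic neurons, 4 were matched in the table, and OXT, HCRT, TRH and NKX2-1 were not. PMCH, HDC and SIM1 were above 0 in all 6 libraries, while AVP was listed at 0 in all 6. A 0 in this table was not read as absence.

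The 10 genes covered a wide range of levels. The order below is by the median of the 6 libraries in summed FPKM, a level per transcript length. IGFBP7 was first with a median of 128 FPKM (97.4 to 208), a mean above that of 96.8% of all genes. IGF1R followed with 10.1 FPKM (9.10 to 13.96), and lay below IGFBP7 and above IGFBP5 in all 6 libraries. IGFBP5 with 6.99 FPKM and IGFBP4 with 6.70 FPKM could not be ordered, since each was the higher in 3 of 6 libraries. GHR with 5.92 FPKM, IGF2R with 5.65 FPKM and IGF1 with 4.94 FPKM came next. The ranges of these 3 and of IGFBP4 and IGFBP5 overlapped, and GHR lay above IGF2R in 4 of 6 libraries and IGF2R above IGF1 in 5 of 6. IGFBP2 had a median of 4.504 FPKM but ran from 2.41 to 73.6 FPKM. IGFBP3 with 1.99 FPKM and IGF2 with 0.422 FPKM were lowest, and their order was turned in pubertal replicate 3 alone. The highest library was 67.9 times the lowest for IGF2 and 30.5 times for IGFBP2.

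The stages were compared by limma on log2(FPKM + 1), a scale that understates the change of low genes. Of the 10 genes, 0 had an adjusted p under 0.05 in limma, and their adjusted p-values ran from 0.962 to 0.988. Over the whole table it was 0 of 16397 genes tested (0%). At an unadjusted p under 0.05 the counts were 0 of 10 and 5.16% of all genes. The log2 fold change was above 0 for 9 of 10 members with a median of 0.37, beside 49.8% of all genes with a median of -0.00065. Every pubertal library lay above every prepubertal library for IGF2 and IGFBP2, 2 of 10, where 5.91% of all genes did so. No member showed the opposite order, which 3.84% of all genes did. Pubertal replicate 3 was the highest of the 6 libraries for 8 of 10 members and for 22.0% of all genes, a count made after the values were seen. Without that library the median log2 fold change of the members was 0.13, and 7 of 10 were above 0.

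**Figure D1:**
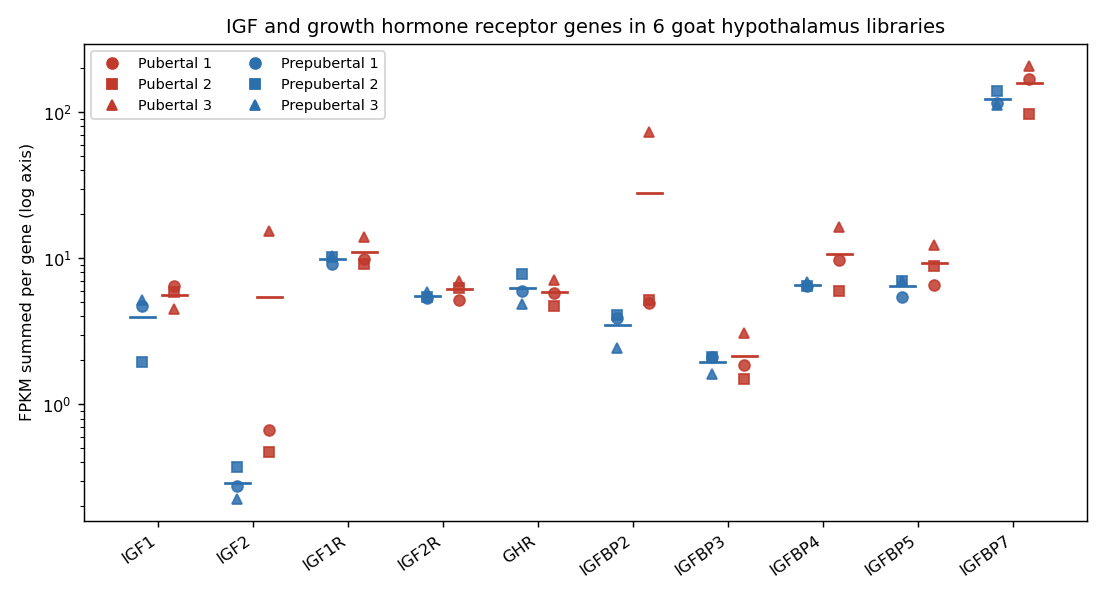
FPKM summed per gene (log axis) for the 10 members, with 1 point per library, prepubertal in blue and pubertal in red, and a bar at each group mean. Pubertal replicate 3 (red triangle) stands far above the other libraries for IGF2 (15.3 FPKM) and IGFBP2 (73.6 FPKM), while IGF1 is lowest in prepubertal replicate 2 (1.94 FPKM).

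**Figure D2:**
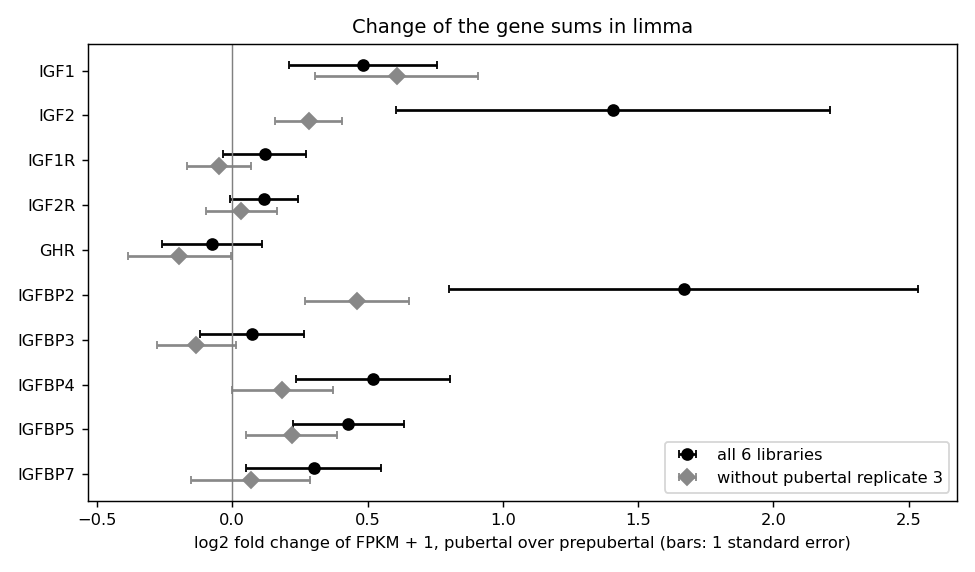
Log2 fold change of FPKM + 1, pubertal over prepubertal, for each gene sum in limma, with 1 standard error. Black points use all 6 libraries and grey diamonds leave out pubertal replicate 3. IGF2 goes from 1.41 to 0.28 and IGFBP2 from 1.67 to 0.46, while IGF1 goes from 0.48 to 0.61.

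IGF1, the ligand through which much of growth hormone's action is passed on, had a higher mean in the pubertal libraries, and pubertal replicate 3 was the lowest of them. Its summed FPKM was 6.43, 5.89 and 4.51 in the pubertal libraries, and 4.70, 1.94 and 5.17 in the prepubertal libraries. The groups overlapped, with prepubertal replicates 1 and 3 above pubertal replicate 3, and prepubertal replicate 2 was the lowest. The means were 5.61 ± 0.988 and 3.94 ± 1.74 FPKM (SD, n = 3 each), with a log2 fold change of 0.48 (standard error, SE, 0.27, limma adjusted p = 0.962). Without prepubertal replicate 2 the log2 fold change was 0.15, and without pubertal replicate 3 it was 0.61.

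The IGF1 sum was made of 11 annotated transcripts, among which Cufflinks divides shared fragments by a model, so that each transcript's value is an estimate. Of these, 4 were listed at 0 in all 6 libraries, 2 were above 0 under the minimum mean of 0.1 FPKM, and 5 were tested. The shortest model, NM_001285697.1 of 465 nt, held the largest mean share of FPKM in both stages, 31.7% ± 13.9 in pubertal and 43.9% ± 8.02 in prepubertal libraries (SD, n = 3 each). It rested on few fragments, an estimated 3 to 13 per library, since a short model turns each fragment into a large FPKM. Its values were 2.51, 2.38 and 0.708 FPKM in the pubertal and 2.39, 0.683 and 2.36 FPKM in prepubertal libraries, with no order by stage. Its log2 fold change was 0.03 (SE 0.38), and 0.36 without pubertal replicate 3.

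Most IGF1 fragments fell on 3 long transcripts of 3441 to 3658 nt, which held between 74.9% and 88.8% of the estimated fragments in each library. XM_005680538.2 of 3441 nt was at 1.61, 1.25 and 2.09 FPKM in pubertal and 0.884, 0.700 and 0.362 FPKM in prepubertal libraries. The stages did not overlap, and the lowest library was prepubertal replicate 3. Its log2 fold change was 0.69 (SE 0.20, unadjusted p = 0.00996, limma adjusted p = 0.944). XM_005680539.2 of 3520 nt showed the converse in that library. It was at 1.04 FPKM in prepubertal replicate 3, at 0.382 FPKM in prepubertal replicate 1 and 0.298 FPKM in pubertal replicate 2, and below 0.001 FPKM in the other 3. XM_005680537.2 of 3658 nt ran from 0.202 to 0.936 FPKM, with a log2 fold change of 0.30 (SE 0.19) and overlapping stages, and 0.15 without pubertal replicate 1 or 0.46 without pubertal replicate 2. Added together, the 3 long transcripts gave 2.55, 1.81 and 2.67 FPKM in the pubertal and 1.497, 0.902 and 1.79 FPKM in prepubertal libraries, a sum formed after the values were seen. In FPKM the groups did not overlap, but pubertal replicate 2 was only just above prepubertal replicate 3. As estimated fragments, not scaled by library, the sums were 188, 134 and 150 in the pubertal and 94, 67 and 139 in prepubertal libraries, which overlapped. Such a sum was not formed for other genes, so no share of all genes stands beside it.

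XM_005680531.2, a transcript of 1062 nt, was at 1.28, 1.70 and 1.04 FPKM in pubertal and 0.810, 0.357 and 0.658 FPKM in prepubertal libraries. The stages did not overlap, with a log2 fold change of 0.54 (SE 0.19, unadjusted p = 0.0220, limma adjusted p = 0.970). These values rested on an estimated 7 to 32 fragments per library. Among all 17 member transcripts tested, XM_005680538.2 and XM_005680531.2 were the 2 with an unadjusted p under 0.05, where 4.87% of the 23821 transcripts tested had one. None of the 17 had an adjusted p under 0.05 in limma, and neither had any other transcript (0%). There were 3 member transcripts with every pubertal library above every prepubertal library, these 2 and IGFBP2's, where 5.52% of all transcripts did so.

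Whether the IGF1 transcripts changed unequally within the gene was tested with limma's diffSplice, which sets the change of each transcript against that of the other transcripts. XM_005680539.2 differed most, by -0.76 on the log2 scale (unadjusted p = 0.0246, limma adjusted p = 0.609). XM_005680538.2 differed by 0.56 (adjusted p = 0.836), by 0.32 without pubertal replicate 3 and by 0.30 without prepubertal replicate 3. Of the 10 transcripts of IGF1, IGF2 and GHR tested in this way, 0 had an adjusted p under 0.05 and 1 had an unadjusted one. Over the 11100 transcripts tested these shares were 0.135% and 6.95%. As shares of IGF1's FPKM, XM_005680531.2 held 23.9% ± 4.59 in pubertal and 16.1% ± 2.99 in prepubertal libraries (SD, n = 3 each; exact two-sided permutation test, p = 0.1). That is the smallest p that 3 libraries against 3 can give. The other 4 transcripts had exact permutation p-values from 0.2 to 0.5. The share of NM_001285697.1 differed by -12.2 percentage points, pubertal minus prepubertal, and by -4.16 without pubertal replicate 3, and that of XM_005680538.2 by 10.2 and 2.52. When FPKM was first multiplied by the full transcript length, XM_005680531.2 held 13.8% and 10.001% (exact permutation p = 0.3). These are not shares of the estimated fragments, which use a shorter, effective length. Of those it held 10.3%, 18.0% and 8.72% in the pubertal and 10.9%, 8.65% and 7.41% in prepubertal libraries.

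The way the transcripts are added bore on IGF1. Counted as estimated fragments, IGF1 had 224, 179 and 169 in the pubertal libraries, and 117, 77 and 171 in the prepubertal libraries. Per 1000000 fragments of the total implied by the FPKM scale these were 9.91, 7.85 and 9.76 against 6.05, 3.36 and 7.25. On this scale every pubertal library lay above every prepubertal library. With FPKM weighted by transcript length, a choice added after the data were seen, the log2 fold change was 0.51 (SE 0.19, unadjusted p = 0.0267, limma adjusted p = 0.865). IGF1 was then the 1 of 10 members with an unadjusted p under 0.05, against 5.17% of all genes, and 3 of 10 members did not overlap, against 5.87%.

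**Figure D3:**
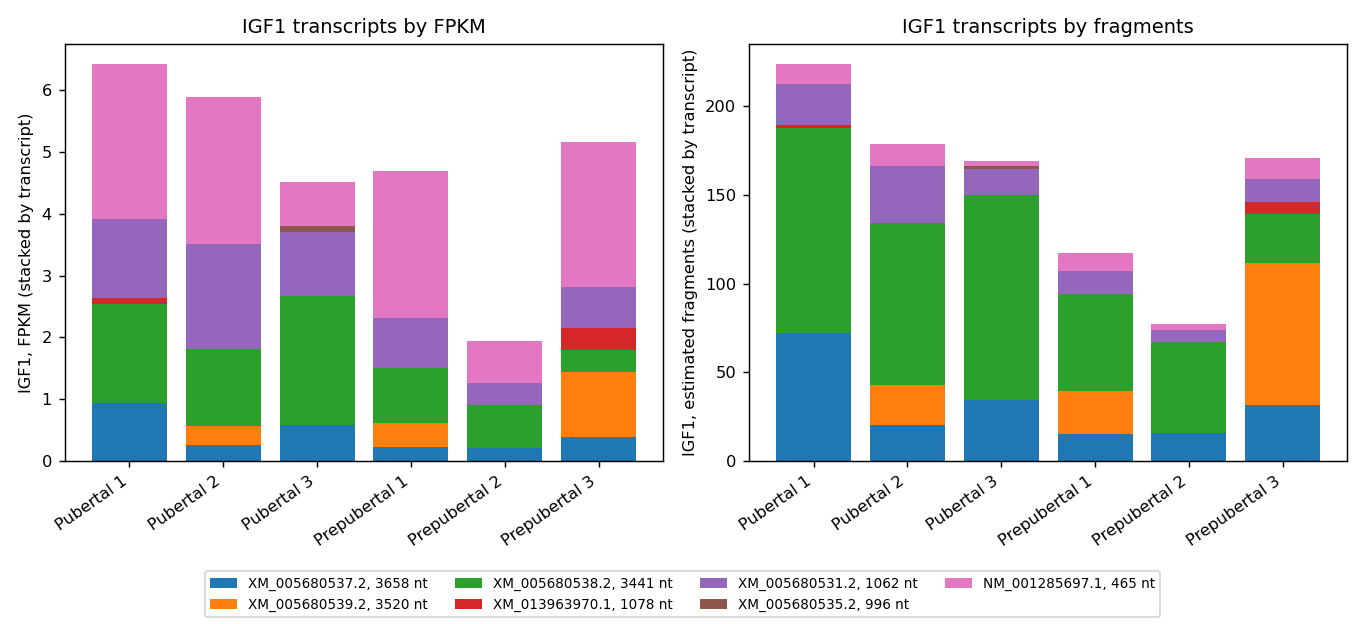
IGF1 transcripts stacked by library, on the left in FPKM and on the right in estimated fragments; the 4 transcripts listed at 0 throughout are left out. The 465 nt model takes 15.7% to 50.9% of the FPKM but 1.63% to 8.65% of the fragments, and XM_005680539.2 exceeds XM_005680538.2 in prepubertal replicate 3 alone.

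IGF2, the ligand that both IGF1R and IGF2R bind, was low in 5 libraries and high in 1. Its sum was 0.668, 0.473 and 15.3 FPKM in pubertal and 0.274, 0.371 and 0.225 FPKM in prepubertal libraries. Pubertal replicate 3 was 41.1 times the median of the other 5. Estimated fragments were 252 in that library and between 5 and 14 in the others, so the order of those 5 rests on very few reads. The log2 fold change was 1.41 (SE 0.80, limma adjusted p = 0.962), and 0.28 without pubertal replicate 3. Pubertal replicates 1 and 2 were still above the 3 prepubertal libraries, an order for which no share of all genes was computed. IGF1 exceeded IGF2 by 5.23 to 23.0 times in 5 libraries, whereas in pubertal replicate 3 their ratio was 0.296. The 2 IGF2 transcripts, NM_001287042.1 of 1189 nt and NM_001287041.1 of 1251 nt, took turns in the libraries. NM_001287042.1 held nearly all of the FPKM in pubertal replicate 1 and all prepubertal libraries and 91.6% in pubertal replicate 3, but 0.0926% in pubertal replicate 2, where the gene had an estimated 11 fragments.

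The log2 fold changes of the 3 receptors were smaller than their standard errors. IGF1R, the signalling receptor, was at 9.93, 9.17 and 13.96 FPKM in the pubertal and 9.10, 10.3 and 10.4 FPKM in prepubertal libraries. Pubertal replicate 3 was the highest and the other 5 lay together, on 622 to 866 estimated fragments. Its log2 fold change was 0.12 (SE 0.15), and -0.05 without pubertal replicate 3. IGF2R, the clearance receptor, was at 5.16, 6.30 and 6.97 FPKM against 5.35, 5.43 and 5.86 FPKM, a log2 fold change of 0.12 (SE 0.13), and 0.03 without pubertal replicate 3. Its pubertal libraries held both the lowest and the highest value. It had 687 to 954 estimated fragments per library.

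GHR had the only log2 fold change below 0, at -0.07 (SE 0.18, limma adjusted p = 0.985), and -0.20 without pubertal replicate 3. Its sum was 5.83, 4.71 and 7.05 FPKM in the pubertal and 6.02, 7.84 and 4.89 FPKM in prepubertal libraries, and the stages overlapped. XM_013972754.1 and XM_013972757.1, both of 3968 nt, had identical values in 5 libraries, 2.84, 2.29 and 3.14 FPKM in the pubertal and 2.999 and 3.90 FPKM in prepubertal replicates 1 and 2. In prepubertal replicate 3 they were at 4.86 and 0.0230 FPKM. The GHR sum of that library, 4.89 FPKM, lay within the range of the other 5. Such a pair of transcripts with the same value above 0 in at least 3 libraries occurred in 19 of 4376 genes with several transcripts. NM_001285648.1 of 2198 nt was at 0.748 FPKM in pubertal replicate 3, an estimated 25 fragments, and at or near 0 elsewhere.

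**Figure D4:**
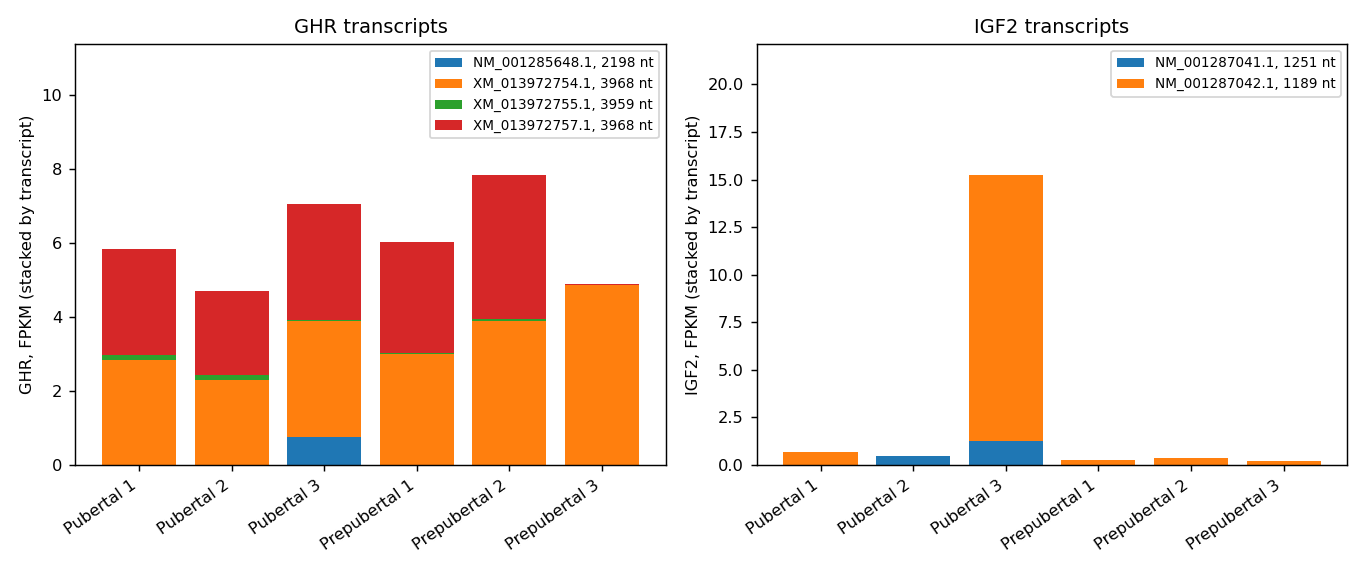
GHR (left) and IGF2 (right) transcripts stacked by library in FPKM, on different scales. The 2 GHR models of 3968 nt are equal in 5 libraries and 1 of them takes nearly all in prepubertal replicate 3, while IGF2 stands at 15.3 FPKM in pubertal replicate 3 and at 0.668 FPKM or less elsewhere.

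Among the binding proteins IGFBP2, a major carrier of IGF2 in cerebrospinal fluid, had the widest difference. It was at 4.93, 5.18 and 73.6 FPKM in pubertal and 3.93, 4.08 and 2.41 FPKM in prepubertal libraries. Pubertal replicate 3 was 18.1 times the median of the other 5, with 679 estimated fragments against 30 to 64. The log2 fold change was 1.67 (SE 0.87, limma adjusted p = 0.962). Without that library the groups still did not overlap, an order for which no share of all genes was computed. The log2 fold change was then 0.46 (limma unadjusted p = 0.0452). IGFBP2 was the 1 member of 10 with an unadjusted p under 0.05 in that fit, where 4.03% of all genes had one.

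IGFBP5, which binds matrix and both ligands, was at 6.59, 8.85 and 12.4 FPKM against 5.41, 6.94 and 7.03 FPKM, with a log2 fold change of 0.43 (SE 0.20). The groups overlapped through pubertal replicate 1 alone, and without pubertal replicate 3 the log2 fold change was 0.22. IGFBP4, an inhibitor of IGF action that the protease PAPPA cleaves, was at 9.75, 5.94 and 16.3 FPKM against 6.47, 6.41 and 6.92 FPKM. Its 3 prepubertal libraries were close, and pubertal replicate 2 was the lowest of all 6. Its log2 fold change was 0.52 (SE 0.28), and 0.19 without pubertal replicate 3. Both rested on 36 to 85 estimated fragments per library, as the gene models are only 534 and 638 nt long.

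IGFBP7, abundant in vessel walls, was at 168, 97.4 and 208 FPKM in the pubertal and 116, 139 and 112 FPKM in prepubertal libraries. Pubertal replicate 2 was the lowest and pubertal replicate 3 the highest, and the log2 fold change was 0.30 (SE 0.25), and 0.07 without pubertal replicate 3. IGFBP3, the main carrier of IGFs in blood, was at 1.87, 1.49 and 3.10 FPKM against 2.11, 2.12 and 1.60 FPKM. Its log2 fold change was 0.07 (SE 0.19), and -0.13 without pubertal replicate 3. The FPKM of the 5 binding proteins together was 191, 119 and 314 in the pubertal and 134, 159 and 130 in the prepubertal libraries, and the groups overlapped. IGFBP7 made up 81.9% to 87.9% of this sum in 5 libraries and 66.4% in pubertal replicate 3.

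Markers of other cell types were set beside these values, to show how they moved in the same libraries. In bulk RNA, fewer cells of a type and less RNA per cell cannot be told apart. The summed leptomeningeal fibroblast markers were 127 to 344 FPKM in the pubertal and 54.6 to 99.1 FPKM in prepubertal libraries, with 7 of 7 genes higher on average in pubertal libraries and 4 of 7 above without overlap, where 5.91% of all genes were. Markers of pericytes and smooth muscle summed to 128 to 327 FPKM against 87.2 to 110 FPKM, with 4 of 7 above without overlap, beside the same 5.91%. Both sums were highest in pubertal replicate 3, by 3.47 and 2.97 times the median of the other 5, the library in which 8 of 10 members, all but IGF1 and GHR, were highest too. The choroid plexus sum was 28.0 times that median there, of which TTR made up 309 of 329 FPKM. Gene by gene, pubertal replicate 3 was 44.5 times the median of the other 5 for TTR, 9.10 for KCNJ13, 6.18 for CLIC6, 2.32 for FOLR1, 2.23 for SLC4A5 and 1.25 for KL. CLIC6, FOLR1, SLC4A5 and KL stayed low there, between 0.553 and 2.70 FPKM, and CLIC6 was at 0 in prepubertal replicate 3. Endothelial markers summed to 25.7 to 36.5 FPKM against 21.0 to 29.0 FPKM. The part of these cells in the values of the members was not tested. Over all 6 libraries the sums ran from 250 to 305 FPKM for microglia, from 3991 to 4333 FPKM for astrocytes and from 622 to 741 FPKM for neurons. Single markers could differ from these sums. C1QA, 1 of 6 microglia markers, and ALDH1L1, 1 of 5 astrocyte markers, lay above without overlap, beside 5.91% of all genes. Their means were 52.5 and 15.2 FPKM in pubertal and 39.1 and 9.42 FPKM in prepubertal libraries. The other markers of these 2 lists overlapped. The sum for hypothalamic neurons, mostly PMCH, was 2277, 1074 and 817 FPKM in the pubertal and 2149, 1049 and 2308 FPKM in prepubertal libraries. Pubertal replicate 3 was 0.38 times the median of the other 5, and replicate 2 of each stage was low too. By gene, pubertal replicate 3 was 0.33 times the median of the other 5 for PMCH, 0.81 for SIM1 and 1.30 for HDC. For HDC it was the highest library.

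Anterior pituitary markers, of which 5 of 6 were matched (not PRL), summed to 52.8 to 66.0 FPKM in the pubertal and 3.67 to 20.9 FPKM in prepubertal libraries, mostly CGA. CGA and TSHB were the 2 of 5 above without overlap, beside 5.91% of all genes. LHB overlapped, with means of 0.855 FPKM in pubertal and 0.844 FPKM in prepubertal libraries. FSHB was at 1.09 FPKM in pubertal replicate 3, at 0.142 FPKM in prepubertal replicate 2 and listed at 0 elsewhere. GH1, the growth hormone gene, was at 7.79 FPKM in pubertal replicate 3, an estimated 54 fragments, and was listed at 0 in the other 5 libraries. Near-identical copies of this gene exist in goats, so its 0 values are uncertain. Oligodendrocyte markers summed to 723 to 3599 FPKM against 225 to 1128 FPKM, a spread set by MBP, which was listed at 0 in prepubertal replicate 1.

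**Figure D5:**
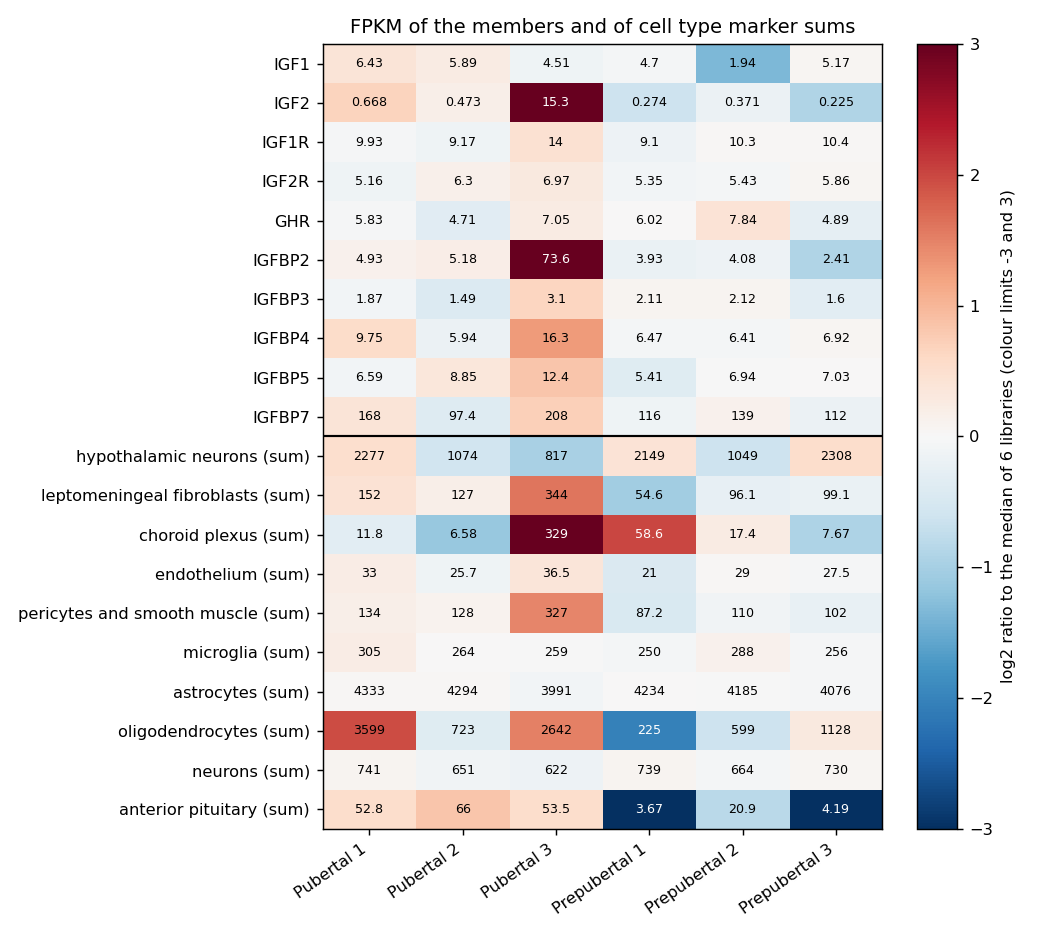
Members (upper block) and sums of cell type markers (lower block) by library; numbers are FPKM, and colour is the log2 ratio to the median of the 6 libraries. Pubertal replicate 3 is red for IGF2, IGFBP2, IGFBP4 and the fibroblast, choroid plexus, smooth muscle and oligodendrocyte sums. The oligodendrocyte sum is redder still in pubertal replicate 1, while the astrocyte, microglia and neuron sums are pale throughout.

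The rest of the pathway was followed through 56 further genes, of which 51 were in the table and 47 were tested. None had an adjusted p under 0.05 in limma (lowest 0.733), and 6 had an unadjusted p under 0.05, against 5.16% of all genes. The log2 fold change was above 0 for 28 of 47 (49.8% of all genes), with a median of 0.06. Without overlap 4 lay above (5.91% of all genes) and 3 below (3.84%). Of 7 tested genes for other binding proteins, proteases and inhibitors, 5 were above 0. IGFBP6, a carrier that prefers IGF2, was at 20.7, 16.1 and 45.4 FPKM in the pubertal and 13.6, 15.0 and 11.95 FPKM in prepubertal libraries, all pubertal above all prepubertal. Its log2 fold change was 0.84 (SE 0.32, limma adjusted p = 0.913), and 0.41 without pubertal replicate 3. HTRA1, a secreted protease, was at 112, 108 and 121 FPKM against 133, 138 and 129 FPKM, the opposite order, with a log2 fold change of -0.23 (SE 0.08, limma adjusted p = 0.883), and -0.28 without pubertal replicate 3.

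Of the 24 tested genes in the signal chain below IGF1R and the insulin receptor, 12 were above 0, and their median log2 fold change was -0.00074. IRS4, an adaptor that links these receptors to PI3-kinase and is known from the hypothalamus, was at 17.2, 18.998 and 17.9 FPKM in the pubertal and 25.0, 28.8 and 20.1 FPKM in prepubertal libraries. The groups did not overlap, and the log2 fold change was -0.42 (SE 0.13, limma adjusted p = 0.808), close to the -0.41 without pubertal replicate 3. SHC1, the adaptor towards the RAS pathway, was at 7.10, 7.64 and 10.3 FPKM against 5.73, 6.21 and 6.01 FPKM, also without overlap (log2 fold change 0.40, SE 0.14, and 0.26 without pubertal replicate 3). RPS6KB1, the S6 kinase below mTOR, was at 12.9, 12.1 and 13.2 FPKM against 10.8, 12.04 and 10.9 FPKM, with groups that only just separated.

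Of the 9 tested genes below GHR, 8 were above 0, beside 49.8% of all genes, with a median log2 fold change of 0.10. SOCS3, a feedback inhibitor of cytokine receptors, had 1.32, 1.92 and 1.87 FPKM in the pubertal and 0.952, 0.806 and 0.827 FPKM in prepubertal libraries. All pubertal values lay above all prepubertal ones, with a log2 fold change of 0.53 (SE 0.13, unadjusted p = 0.00339, limma adjusted p = 0.733), and 0.48 without pubertal replicate 3. SOCS3 had the lowest p of the 47 genes, and its values rested on an estimated 17 to 41 fragments per library. STAT5B was listed at 0 in all 6 libraries. IGF2BP3, an RNA-binding protein named for its binding of IGF2 mRNA, was at 1.23, 1.09 and 1.347 FPKM against 2.08, 1.62 and 2.45 FPKM. The pubertal libraries all lay below (log2 fold change -0.45, SE 0.14, limma adjusted p = 0.795). Of the 5 tested hormones and receptors of the insulin and growth hormone axis, 2 were above 0 and none separated the stages. GHRH, the growth hormone releasing hormone, ran from 15.8 to 30.5 FPKM.

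The genes whose profile over the 6 libraries was closest to the 2 ligands were found by the root mean square difference of log2(FPKM + 1), each gene centred on its own mean, among 13499 genes. For IGF1 they were ARC, an immediate early gene of active neurons, with a difference of 0.153, PYGM, the glycogen phosphorylase of muscle and astrocytes, with 0.154, and TESC with 0.165, where IGF1 itself varied by 0.435 around its mean. All 3 were lowest in prepubertal replicate 2, as IGF1 was. Likeness to IGF1 was taken on its summed FPKM, of which the 465 nt model held 15.7% to 50.9%, and was not tested. For IGF2 they were SLC5A5 with 0.0796, CRABP2, a retinoic acid binding protein, with 0.0816, and ACTG2, a smooth muscle actin, with 0.138, against 1.33 for IGF2 itself. SLC5A5, CRABP2 and ACTG2 were at 15.5, 19.9 and 20.8 FPKM in pubertal replicate 3 and at most 1.44 FPKM in any other library. This likeness rests on that 1 library and was not tested.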

How the data were processed

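Hypothalamus from 3 pubertal and 3 prepubertal goats was analysed, grouped by the sample titles. Strand-specific paired-end libraries, depleted of ribosomal RNA, were aligned by TopHat. Scripture and Cufflinks (2.1.1 in the submitters' notes) served for assembly, and the authors deposited FPKM per transcript and library. The genome build is not given in the sources used here, so no coordinates are printed. Their deposited comparison holds group FPKM, fold changes, p-values and q-values from Cuffdiff (2.1.1), which were not used. From it came transcript lengths and gene identifiers. Symbols came from a RefSeq gene table (ARS1.2), which matched 19083 of 20225 genes (94.4%) and was used for names only. Read counts are not in the tables used, so no count model was fitted. A transcript of 150 nt held between 21.4% and 52.7% of the summed FPKM, so a scaling without it was tried.

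FPKM was summed per gene. limma 3.58.1 (R 4.3.3; lmFit, eBayes with trend, two-sided) was fitted on log2(FPKM + 1), over all genes or transcripts whose mean reached 0.1 FPKM, and p-values were adjusted by Benjamini and Hochberg and called under 0.05. Transcript use was tested with diffSplice, and IGF1 shares with exact permutation tests. Other steps used Python 3.11.15, pandas 2.3.3 and matplotlib 3.10.9. Scripts were tested on simulated data. P-values of the gene and transcript fits and of the permutation tests rest on the spread between single goats. Those of diffSplice pool the residual spread of the transcripts of a gene, which share fragments and are not independent. The value of 1 fragment came from a line through 1 over FPKM against length, in single-transcript genes of 1 fragment. It gives the divisor of the FPKM and not the sequencing depth. No counting intervals are given, since fragments of several transcripts are model estimates. Per-sample columns not used numbered 0.

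The members and gene lists were chosen with earlier results of these data known. Genes named were all members, from each pathway list those past the adjusted threshold or else up to 3 without overlap and with the largest change, and the 3 genes closest in profile to each ligand. AVP, PMCH, HDC, SIM1, STAT5B, GHRH, GH1, TTR, KCNJ13, CLIC6, FOLR1, SLC4A5, KL, ALDH1L1, C1QA, CGA, TSHB, LHB, FSHB and MBP were named after their values were seen. Alternatives were the pseudocount (0.1), the minimum (none or 1 FPKM), quantile normalization, median centring, rescaling without the most abundant transcript, no trend, a replicate block, each library left out, and, added later, FPKM weighted by transcript length. lncRNA files were not used, and sequences of the members were not analysed here. A withheld item is not reported here.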

Additional observations from a re-analysis of the deposited data

How the results depend on the processing

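No member gene or transcript passed an adjusted p of 0.05 under any alternative, and no member gene changed sign under another pseudocount, minimum, scaling or trend setting. In all, 545 values kept their direction and side of the threshold, or a count within 1.5 times, 22 counts moved further and 14 values reversed. With the replicate number as a block the counts at an adjusted p under 0.05 were 1 gene, 0 transcripts and 5 transcripts for use. Same-numbered libraries had deviations correlated between -0.107 and 0.0876, so the numbers do not pair the goats. Leaving out each library in turn gave 0 to 4 genes (4 without pubertal replicate 2) and 0 to 1 transcripts, against 0 each with all 6, and 18 to 34 transcripts for use, against 15 (34 without pubertal replicate 1 or 3). For use the count was 58 with a pseudocount of 0.1, 24 with no minimum and 7 with a minimum of 1 FPKM. At an unadjusted p, genes numbered 2223 without pubertal replicate 1 and 502 without prepubertal replicate 1, against 846, and transcripts 2509 without pubertal replicate 1, against 1159.

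With 1 library left out, these log2 fold changes crossed 0. IGF1R ran from -0.0488 (without pubertal replicate 3) to 0.229, GHR from -0.214 to 0.0797 (without prepubertal replicate 2; 0.052 without pubertal replicate 2) and IGFBP3 from -0.133 (without pubertal replicate 3) to 0.226. GHR XM_013972757.1 ran from -0.242 (without prepubertal replicate 3) to 0.887, and IGF1 NM_001285697.1 from -0.308 (without prepubertal replicate 2) to 0.365, and was -0.0126 with quantile normalization. Against the other IGF1 transcripts, XM_005680537.2 ran from -0.0429 (without pubertal replicate 1) to 0.311 and NM_001285697.1 from -0.502 to 0.0671 (without pubertal replicate 3). The causes were not tested. The trend setting does not enter diffSplice. IGF2 rested on 5 to 14 estimated fragments in 5 libraries.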
